A study of Mus musculus with 4 samples.

Results

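Described here are 10 genes of the matrix-degrading proteases and their inhibitors: Timp1, Timp2, Timp3 and Timp4, Mmp2, Mmp3 and Mmp14, and Adamts1, Adamts4 and Adamts5. They were taken by symbol from a list and not filtered by their measured values, but the list was chosen with earlier results of these data known. Their share of calls beside that of all genes is therefore a description. They are 10 of the 32286 features counted in each library. The study profiled single cells of vessels behind the mouse knee with a droplet assay that counts each RNA molecule by a unique molecular identifier (UMI) near its 3′ end. The 2 PLV libraries held popliteal lymphatic vessels, each from its own pool of 2 mice and digested for 30 min with collagenase I, Dispase II, DNase and Liberase. A further library held popliteal lymphatic and blood vessels together, from 1 pool of 2 mice, digested for 60 min with collagenase I and Dispase II only. It is called the mixed library, and its cells were treated as 1 sample because the files do not say which hashtag marks which vessel. All mice were adults of a WT1GFPCre line crossed with Ai9-tdT, and all received 4% Evans blue in the footpad, so no group is free of these alleles or of the dye. Since mice were pooled, no value belongs to 1 animal. Any difference between the mixed and PLV libraries therefore joins the vessel, the digestion, the run, the mice with their sex, and the software version. These cannot be told apart.

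Matrix metalloproteinases (MMPs) are zinc enzymes that cut collagens, laminins and other proteins of the extracellular matrix, and the ADAMTS enzymes are secreted relatives that include the main cleavers of the proteoglycans versican and aggrecan. Tissue inhibitors of metalloproteinases (TIMPs) bind the active site of these enzymes. In vessel walls the balance of both groups is known to set how the basement membrane and the adventitia are remodelled. MMP14 sits in the cell membrane, and together with TIMP2 it activates the secreted MMP2. TIMP3 differs from the other inhibitors in that it stays bound to the matrix and also blocks ADAMTS4 and ADAMTS5.

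After filtering, 1907 cells of PLV replicate 1, 516 of PLV replicate 2 and 993 of the mixed library were kept, with median depths of 3372, 4886 and 6171 UMIs, and no cell barcode was shared between libraries. The mice of the mixed library differed in sex from the PLV pools, since Xist had 6254, 2099 and 1 UMIs and the Y-linked Ddx3y had 0, 0 and 738. Each library was clustered alone, without the 10 genes, and clusters were named from markers. Fibroblast-like, muscle-like, pericyte-like, blood endothelial-like, lymphatic endothelial-like and Schwann-like cells were found in every library, so the PLV libraries also held cells of blood vessels and nerve. Levels are given in CPM, the UMIs of a gene divided by all UMIs of a class or cluster in one library and scaled to the usual fixed total, and intervals cover counting error only. A level is a share of the RNA of its class, so it can move through that gene or through the other RNA of the same cells.

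All 10 genes were matched by identifier to GENCODE M21 on GRCm38. Timp1 (chrX:20870166-20874735), Timp3 (chr10:86300372-86349506) and Timp4 (chr6:115241892-115252205) each lie inside a synapsin gene, Syn1, Syn3 and Syn2 in that order, on the opposite strand. The files do not state how strand was counted. The synapsins were sparse: Syn1, Syn2 and Syn3 had 5, 59 and 262 UMIs over all cells of PLV replicate 1, where Timp3 alone had 4310 UMIs in the fibroblast-like cells. Mmp2 lies at chr8:92827291-92853420, Mmp3 at chr9:7445822-7455975 and Mmp14 at chr14:54431612-54445364. Adamts1 (chr16:85793827-85803113) and Adamts5 (chr16:85856173-85901828) are neighbours on the minus strand. Adamts4 lies at chr1:171250421-171260637, and Timp2 (chr11:118301069-118355740) overlaps Cep295nl.

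RefSeq promoter windows on GRCm38.p6 were found for 7 of the 10 genes. The 250 bases before the start are shown for 4 of them, because these genes stand for the patterns described below: Mmp3 and Timp1 were led by fibroblast-like cells, Timp4 by 1 muscle cluster and capillary-like cells, and Adamts1 by lymphatic endothelial-like and muscle-like cells. Capitals mark matches, on either strand, to TGANTCA (the AP-1 site), TATAAA or GGGCGG. All are written 5′ to 3′ on the strand of the gene.
Mmp3 (chr9:7445572-7445821, plus strand): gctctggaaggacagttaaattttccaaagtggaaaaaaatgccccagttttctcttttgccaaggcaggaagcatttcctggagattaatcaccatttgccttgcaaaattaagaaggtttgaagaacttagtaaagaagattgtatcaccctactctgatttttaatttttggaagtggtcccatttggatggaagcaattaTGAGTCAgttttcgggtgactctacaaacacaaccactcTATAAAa
Timp1 (chrX:20869916-20870165, plus strand): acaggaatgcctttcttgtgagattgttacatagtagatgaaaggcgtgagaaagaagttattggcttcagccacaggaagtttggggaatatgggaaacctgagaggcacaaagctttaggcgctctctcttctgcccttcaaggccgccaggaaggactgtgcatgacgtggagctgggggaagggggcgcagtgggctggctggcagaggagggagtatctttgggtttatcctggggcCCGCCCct
Timp4 (chr6:115252206-115252455, minus strand): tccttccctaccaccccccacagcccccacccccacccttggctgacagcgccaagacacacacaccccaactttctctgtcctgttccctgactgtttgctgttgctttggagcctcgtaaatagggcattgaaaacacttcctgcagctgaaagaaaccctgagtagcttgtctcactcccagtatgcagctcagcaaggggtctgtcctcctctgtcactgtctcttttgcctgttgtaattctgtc
Adamts1 (chr16:85803114-85803363, minus strand): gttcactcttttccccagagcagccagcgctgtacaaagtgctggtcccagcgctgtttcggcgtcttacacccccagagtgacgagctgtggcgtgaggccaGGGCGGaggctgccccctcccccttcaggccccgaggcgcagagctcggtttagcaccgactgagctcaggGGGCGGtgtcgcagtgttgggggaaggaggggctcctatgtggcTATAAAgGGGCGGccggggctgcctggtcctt
The Mmp3 window held TGANTCA starting 46 bases and TATAAA starting 7 bases before the start. The Adamts1 window held TATAAA starting 32 bases before the start and 3 copies of GGGCGG. The Timp1 window held 1 copy of GGGCGG on the opposite strand, and the Timp4 window held none of the motifs. Of all 32851 windows of the same length, 6.75% held TGANTCA, 12.4% held TATAAA and 32.7% held GGGCGG, and the CArG box (1.47% of windows) was in none of the 7.

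Across cell classes the 4 inhibitors were distributed differently. Timp2 was highest in fibroblast-like cells, Timp3 in pericyte-like cells, and Timp4 in muscle-like and blood endothelial-like cells. Timp1 was low everywhere except in the fibroblast-like cells of the mixed library. These orders are of means over libraries, and the plot of levels by class shows each library.

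**Figure D1:**
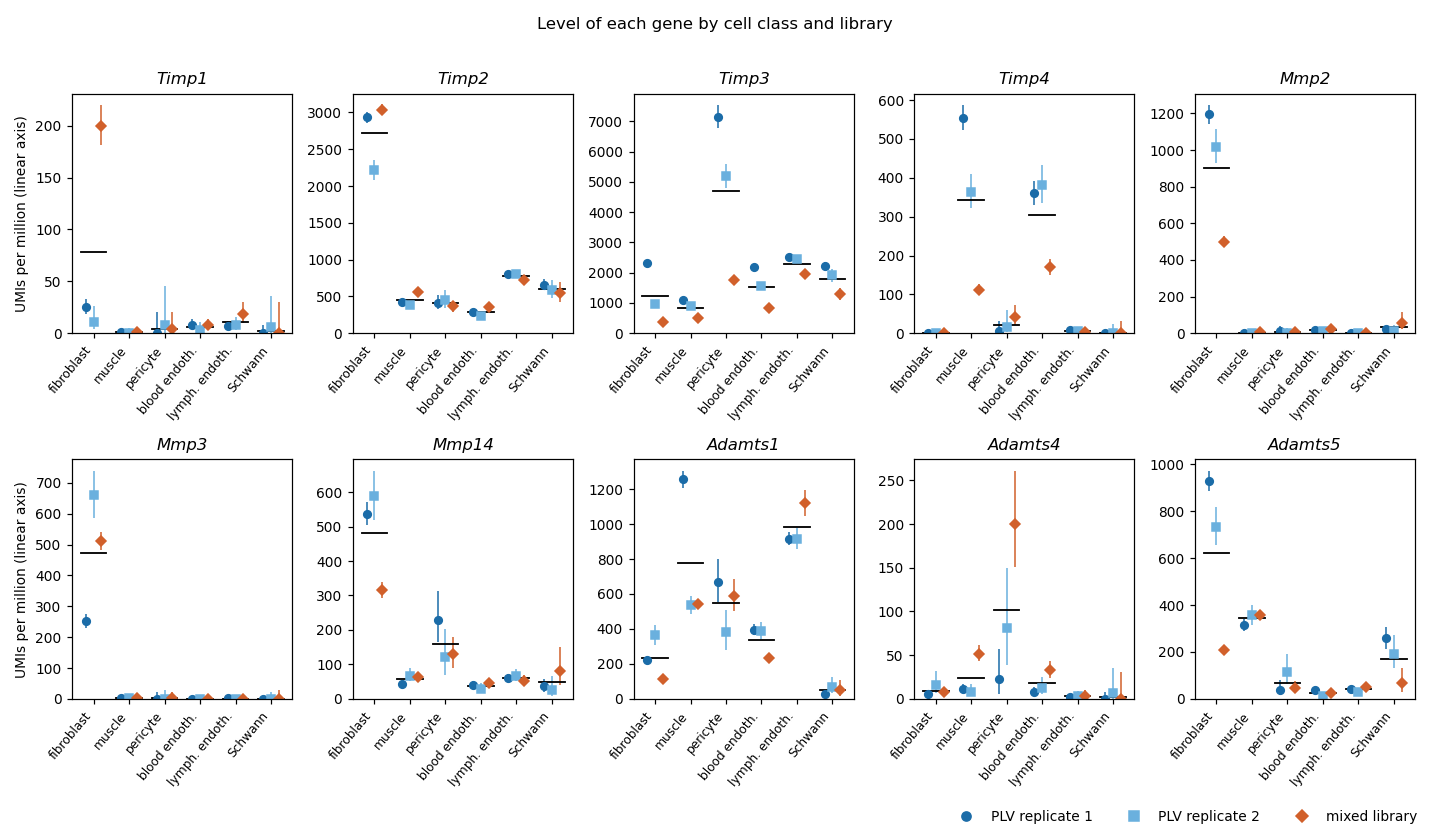
Level of each gene in CPM (linear axes that differ between panels) in 6 cell classes; points are libraries, vertical bars 95% Poisson intervals and black lines the mean of 3 libraries. Mmp2, Mmp3, Mmp14 and Timp2 were highest in fibroblast-like cells in each library, Timp3 in pericyte-like cells in the 2 PLV libraries, and Timp4 was at 0 in fibroblast-like and Schwann-like cells.

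Timp2, the inhibitor that also takes part in the activation of MMP2, was at 2934 and 2214 CPM in the fibroblast-like cells of the PLV libraries and at 3035 CPM in those of the mixed library. Its mean was 2728 ± 447.9 CPM (SD, n = 3), against 773.8 ± 49.35 CPM in lymphatic endothelial-like, 453.9 ± 93.19 CPM in muscle-like, 411.3 ± 46.47 CPM in pericyte-like and 292.2 ± 63.29 CPM in blood endothelial-like cells. The fibroblast-like values lay above those of every other class in all 3 libraries, and the lymphatic endothelial-like values came next without overlap. The near-empty droplets of the mixed library (under 50 UMIs each), which hold free RNA, had Timp2 at 448.7 CPM, above the 363 CPM of its pericyte-like and the 355.6 CPM of its blood endothelial-like cells, and the part of free RNA in these levels was not tested. The immune-like cells, which were left out of the fits, had 314.7, 216 and 211.3 CPM.

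Timp3, the matrix-bound inhibitor, was at 7149 and 5184 CPM in pericyte-like cells of the PLV libraries and at 1767 CPM in those of the mixed library. Lymphatic endothelial-like cells were steadier, with 2502, 2448 and 1944 CPM, and Schwann-like cells had 2222, 1908 and 1281 CPM. Muscle-like cells were lowest in the mean, with 1085, 907.7 and 515.3 CPM. The order pericyte-like, lymphatic endothelial-like, Schwann-like, blood endothelial-like, fibroblast-like and muscle-like holds for the means only, since each neighbouring pair overlapped between libraries. Immune-like cells had at most 9.833 CPM, so a high Timp3 level was not shared by every cell in the suspension. In the mixed library the pericyte-like value, 1767 CPM, was below the lymphatic endothelial-like one, 1944 CPM.

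Timp4, the inhibitor first described in heart muscle, was at 554.1, 363.9 and 112 CPM in muscle-like cells and at 360.2, 381.7 and 169.6 CPM in blood endothelial-like cells. Lymphatic endothelial-like cells had 7.438, 6.461 and 3.621 CPM, far below the blood endothelium of the same library. No Timp4 UMI was found in fibroblast-like or Schwann-like cells of any library. Against a limit of 3 UMIs over all fibroblast-like cells, the level pooled over muscle-like cells, 316.2 CPM, was at least 465.5-fold higher.

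Timp1, an inhibitor with growth factor-like actions that is often induced with inflammation and injury, was at 24.88 and 11.08 CPM in fibroblast-like cells of the PLV libraries and at 199.9 CPM in those of the mixed library. In the other classes its highest value was 18.1 CPM, in lymphatic endothelial-like cells of the mixed library. The free RNA of that library held Timp1 at 70.95 CPM, above every class but the fibroblast-like one.

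The 3 MMPs were led by fibroblast-like cells. Mmp2, the gelatinase that cuts denatured and basement membrane collagen, had 1195, 1019 and 499.4 CPM there, and no other class passed 57.5 CPM. Mmp3, or stromelysin 1, which cuts proteoglycans and activates other MMPs, had 251.5, 660.4 and 511.2 CPM in fibroblast-like cells and at most 3.704 CPM in any other class. Mmp14, the membrane-bound activator of MMP2, had 537.1, 587.2 and 315.2 CPM in fibroblast-like cells and 230.1, 122.1 and 129.6 CPM in pericyte-like cells. For Mmp14 the pericyte-like values lay below the fibroblast-like ones and above those of each class that followed in the order of means. Mmp14 was at 25.61 CPM or more in each of the 6 classes of each library, while Mmp3 was close to 0 outside fibroblast-like cells.

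The 3 ADAMTS genes each had another order. Adamts1, a cleaver of versican, was at 917.1, 916.3 and 1119 CPM in lymphatic endothelial-like cells and at 1257, 536.2 and 542.6 CPM in muscle-like cells, and these classes overlapped. Adamts5, an aggrecan and versican cleaver, was at 928.1, 733.5 and 209.3 CPM in fibroblast-like cells and within 314.4 to 357.5 CPM in muscle-like cells. Adamts4, of like substrates, was at 22.45, 81.38 and 200 CPM in pericyte-like cells, which rest on 4, 10 and 54 UMIs, and at 11.25, 7.66 and 51.49 CPM in muscle-like cells. Schwann-like cells held the third highest mean of Adamts5, with 257.9, 192.1 and 65.71 CPM, and the lowest mean of Adamts1.

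Between fibroblast-like and muscle-like cells, 8 of the 10 genes differed at an adjusted p under 0.05 in edgeR, against 39.1% of the 10489 genes tested. Higher in fibroblast-like cells were Timp1, Timp2, Mmp2, Mmp3 and Mmp14. The log2 differences were 2.82 ± 0.21 (SE) for Timp2 (adjusted p = 1.803e-09), 8.21 ± 0.42 for Mmp2 (2.123e-11), 7.85 ± 0.36 for Mmp3 (2.333e-11) and 3.25 ± 0.27 for Mmp14 (8.263e-09). Higher in muscle-like cells were Timp4 (adjusted p = 1.392e-08), Adamts1 (log2 -1.59 ± 0.35, adjusted p = 0.0009202) and Adamts4 (-1.30 ± 0.45, adjusted p = 0.02744). Timp3 (log2 0.53 ± 0.25, adjusted p = 0.1112) and Adamts5 (0.89 ± 0.37, adjusted p = 0.06202) missed the threshold, and both passed it without the mixed library (0.80, adjusted p = 0.004983, and 1.45, adjusted p = 5.211e-05). Both also passed with no filter on low counts (0.52, adjusted p = 0.03506, and 0.87, adjusted p = 0.0005643), and Adamts5 with thinned sums (1.16, adjusted p = 0.002883). The Adamts4 call ended without the mixed library (-0.18, adjusted p = 0.8611), without PLV replicate 1 (adjusted p = 0.0543), with the library left out of the model (0.1751) and under DESeq2 (0.2617). It also ended at 1000 UMIs (0.1051), at 10% mitochondrial UMIs (0.08984) and at Leiden resolutions of 0.5 (0.05064) and 2 (0.05734). The early-response genes, such as Fos, Egr1 and Atf3, which respond to tissue handling, summed to 20690, 11180 and 19070 CPM in muscle-like and 10960, 14220 and 9403 CPM in fibroblast-like cells. Their part in the levels of Adamts1 and Adamts4 was not tested.

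**Figure D2:**
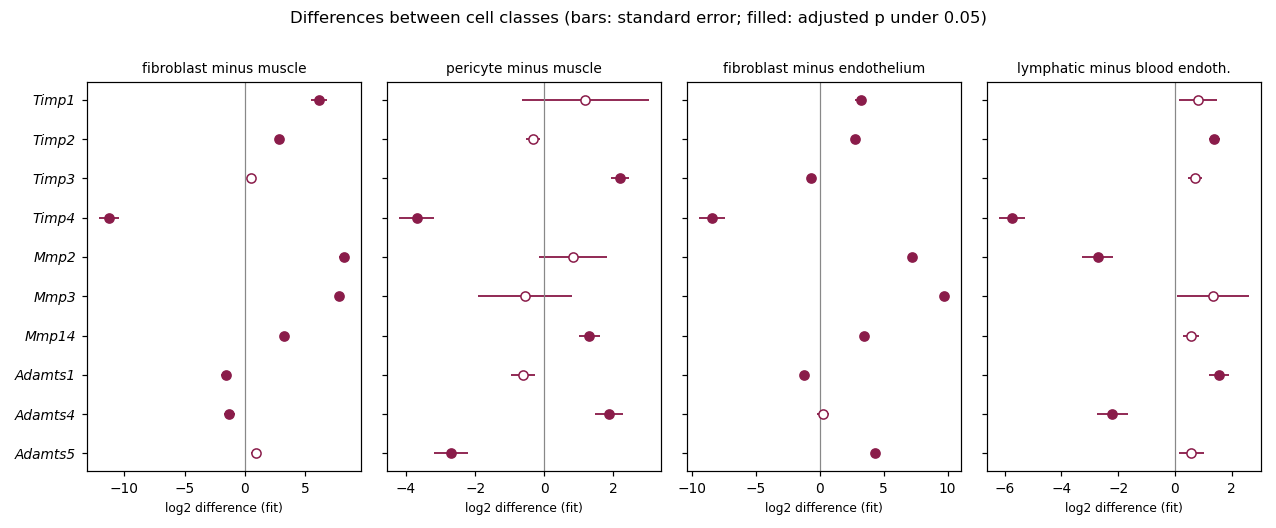
Log2 difference of each gene between classes in the fit over 18 class sums from 3 libraries; horizontal bars are standard errors and filled points passed an adjusted p of 0.05. Fibroblast-like cells were higher in Timp2, Mmp2, Mmp3 and Mmp14 against both muscle-like and endothelial-like cells, and pericyte-like cells were higher than muscle-like cells in Timp3, Mmp14 and Adamts4.

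Pericyte-like cells, which wrap capillaries and small venules, differed from muscle-like cells in 5 of the 10 genes, against 13.3% of the 10489 tested. Timp3 (log2 2.18 ± 0.26, adjusted p = 1.028e-05), Mmp14 (1.30 ± 0.30, adjusted p = 0.005882) and Adamts4 (1.88 ± 0.41, adjusted p = 0.003708) were higher in pericyte-like cells. Timp4 (-3.69 ± 0.51, adjusted p = 0.0001351) and Adamts5 (-2.71 ± 0.49, adjusted p = 0.0007463) were higher in muscle-like cells. Pericyte-like cells numbered 39, 28 and 42, and the 10 blood endothelial markers summed to 5134, 4647 and 4771 CPM in them, against 25620 CPM or more in blood endothelial-like cells. The 8 muscle markers summed to 5970, 7063 and 7675 CPM in them, against 30670 CPM or more in muscle-like cells, and the part of these markers in the results was not tested. With cells of at least 1000 UMIs, or at a Leiden resolution of 0.5, the pericyte-like class of the mixed library grew to 99 and 102 cells, and 2 genes were called in each case. That of PLV replicate 1 grew to 132 cells at the resolution of 0.5 and to 141 with doublets kept. The Timp4 call ended at 1000 UMIs (log2 0.00) and at the resolution of 0.5 (-0.37). The Adamts5 call ended at the resolution of 0.5 (-1.68, adjusted p = 0.05897), where Mmp2 was called (3.98, adjusted p = 0.004735). The Adamts4 call ended at 1000 UMIs (adjusted p = 0.1457), at the resolution of 0.5 (0.2013), without the mixed library (0.07917) and without the library term (0.1095). The Mmp14 call ended without PLV replicate 1 (0.79, adjusted p = 0.2797), at 1000 UMIs (0.1691), with doublets kept (0.06006) and at the resolution of 0.5 (0.1896).

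Against fibroblast-like cells, pericyte-like cells differed in 9 of the 10 genes, beside 22.3% of all genes tested. Timp2, Mmp2, Mmp3, Mmp14, Adamts5 and Timp1 were higher in fibroblast-like cells. Timp3 (log2 -1.65 ± 0.26, adjusted p = 7.999e-05), Adamts4 (-3.18 ± 0.49, adjusted p = 6.4e-05) and Timp4 were higher in pericyte-like cells, where Timp4 rested on 1, 2 and 11 UMIs. The Timp4 call ended with thinned sums (-4.28, adjusted p = 0.06331) and at a Leiden resolution of 2 (-1.51, adjusted p = 0.4911), and the 40.75 CPM of the mixed library lay under the 71.95 CPM of its free RNA. Adamts1 did not pass (-0.97 ± 0.36, adjusted p = 0.05872), though it did without PLV replicate 2 (-1.53, adjusted p = 0.009747).

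The endothelial-like cells, blood and lymphatic together, differed from fibroblast-like cells in 9 of the 10 genes, beside 40.8% of all genes tested. Higher in endothelial-like cells were Timp3 (log2 -0.65 ± 0.23, adjusted p = 0.02685), Adamts1 (-1.19 ± 0.31, adjusted p = 0.004021) and Timp4. The other genes called were higher in fibroblast-like cells, among them Adamts5 (4.32 ± 0.33, adjusted p = 1.827e-09), and Adamts4 was not called (0.24 ± 0.47, adjusted p = 0.7379). The Timp3 call ended without PLV replicate 2 (-0.52, adjusted p = 0.262), without the mixed library (-0.31, adjusted p = 0.2234) and without the library term (-0.49, adjusted p = 0.3992). It also ended under DESeq2, with thinned sums, at 1000 UMIs, at 10% mitochondrial UMIs and at both other resolutions, with log2 values from -0.61 to -0.55. The Timp4 call ended at 1000 UMIs per cell (-3.25, adjusted p = 0.1367) and at a Leiden resolution of 0.5 (adjusted p = 0.05681). 

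Between lymphatic and blood endothelial-like cells 5 of the 10 genes differed, beside 21.6% of all genes tested. Timp2 (1.39 ± 0.20, adjusted p = 2.091e-05) and Adamts1 (1.55 ± 0.34, adjusted p = 0.00168) were higher in the lymphatic cells. Timp4 (-5.74 ± 0.46, adjusted p = 1.419e-07), Mmp2 (-2.72 ± 0.54, adjusted p = 0.0006388) and Adamts4 (-2.20 ± 0.56, adjusted p = 0.006229) were higher in the blood endothelium. Mmp2 in the blood endothelium was low, with 16.84, 10.9 and 23.24 CPM, and in the mixed library this lay under the 75.95 CPM of its free RNA. The Mmp2 call ended with thinned sums (-0.82, adjusted p = 0.8104), and the Adamts4 call without the mixed library (-1.68, adjusted p = 0.1045) or without the library term (-2.63, adjusted p = 0.06175). The early-response genes summed to 18480, 13430 and 30550 CPM in lymphatic and to 9755, 7180 and 8731 CPM in blood endothelial-like cells, higher in the lymphatic cells of each library, and their part in the Adamts1 difference was not tested.

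Within the muscle-like cells, each library held a Pln-led cluster, with Pln and Sorbs2 among its 10 leading genes, and a cluster called the Ano1 set. The Ano1 set rests on 2, 2 and 3 of 7 markers raised 2-fold over the other muscle-like cells. Hmcn2 and Enpp2 were among its leading genes in each library, and Ano1 itself in PLV replicate 1. The mixed library had a further cluster led by P2rx1 and Col12a1. Ano1 encodes a chloride channel and Pln a regulator of the calcium pump of the sarcoplasmic reticulum. The 2 clusters found everywhere differed most in Timp4. Pln-led cells had 851.7, 618.3 and 685.4 CPM of Timp4, and Ano1-set cells had 5.561, 0 and 0.7648 CPM. The P2rx1-led cluster of 76 cells had no Timp4 UMI. After thinning to 1500 UMIs per cell, Timp4 was found in 69%, 52.8% and 58.6% of Pln-led cells and in 0 of 135, 0 of 49 and 0 of 188 Ano1-set cells. The exact 95% upper limits, 2.696%, 7.252% and 1.943%, are for cells with a UMI at that depth and not for cells that express the gene. Without thinning the shares were 86.6%, 86.8% and 67.8% of Pln-led cells, at median depths of 5092, 8560 and 6565 UMIs, and 0.714%, 0% and 0.508% of Ano1-set cells, at 4421, 5909 and 6356 UMIs.

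**Figure D3:**
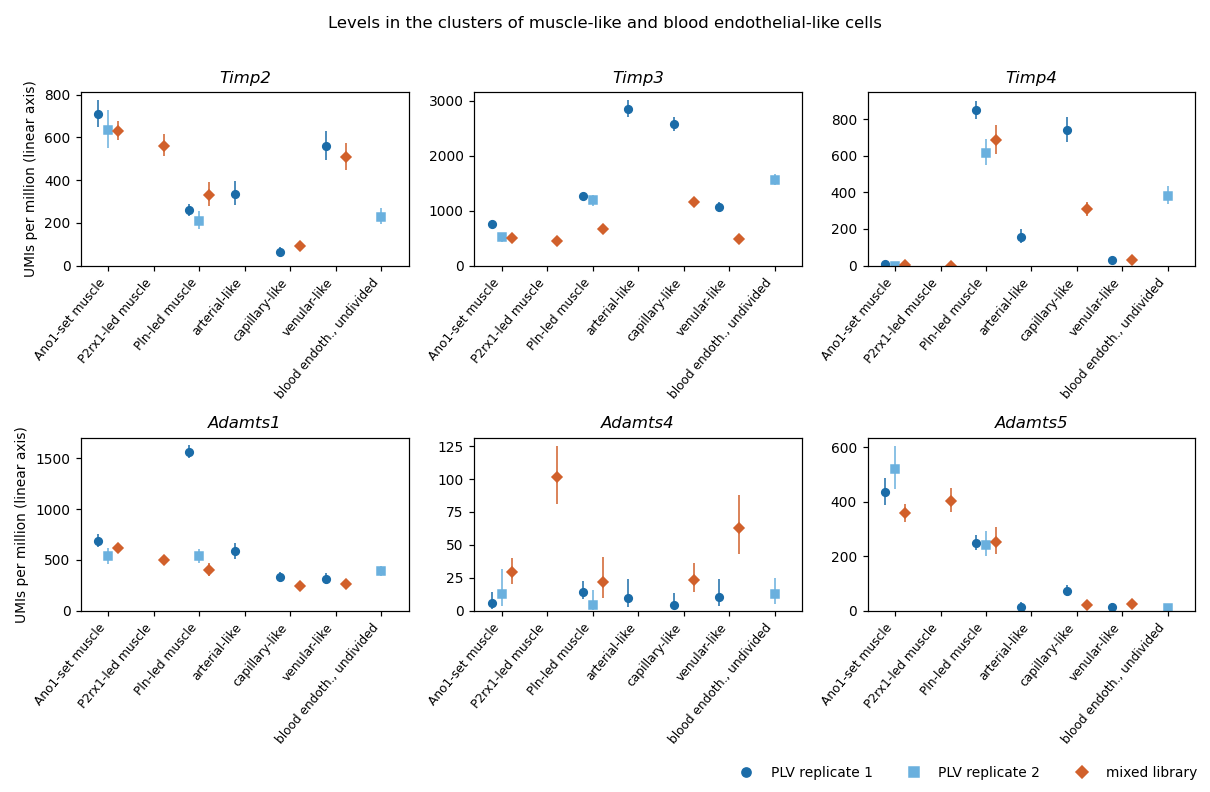
Levels of 6 genes in CPM (linear axes that differ between panels) in clusters of muscle-like and blood endothelial-like cells; points are libraries and bars 95% Poisson intervals. Timp4 was near 0 in Ano1-set and P2rx1-led muscle, at 618.3 CPM or more in Pln-led muscle, and higher in capillary-like than in venular-like cells of the same library, while Timp2 had the opposite order in both pairs.

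The other inhibitors also differed between the muscle clusters. Timp2 was at 710.4, 636 and 631.7 CPM in Ano1-set and at 258.8, 208.3 and 330.7 CPM in Pln-led cells, without overlap. Timp3 was at 754.9, 511.9 and 509.3 CPM in Ano1-set and at 1264, 1185 and 661.4 CPM in Pln-led cells, higher in the Pln-led cells of each library. Adamts5 was at 435.1, 521.2 and 359.4 CPM in Ano1-set and at 249, 243 and 254 CPM in Pln-led cells. In the fit, 4 of the 8 genes tested were called, beside 28.7% of 9413 genes, and Timp1 and Mmp3 were too low in muscle to be tested. The log2 differences, Ano1-set minus Pln-led, were -8.44 ± 0.32 for Timp4 (adjusted p = 5.442e-30), 1.17 ± 0.16 for Timp2 (3.336e-08), -0.92 ± 0.16 for Timp3 (3.687e-06) and 0.64 ± 0.17 for Adamts5 (0.00172). That fit had 2 residual degrees of freedom and drew most of its spread from other genes. The Adamts5 call ended without PLV replicate 1 (adjusted p = 0.0622), without PLV replicate 2 (0.49, adjusted p = 0.09929) or without the library term (0.07022).

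Adamts1 was not called between the muscle clusters (-0.38 ± 0.19, adjusted p = 0.1336), but passed without the mixed library (-0.86, adjusted p = 0.000293), with doublets kept (-0.40, adjusted p = 0.04141) and at a Leiden resolution of 0.5 (-0.82, adjusted p = 0.02381). It was at 1565 CPM in Pln-led and 689.6 CPM in Ano1-set cells of PLV replicate 1, at 538 and 533.6 CPM in PLV replicate 2, and at 400.2 and 617.2 CPM in the mixed library. The high muscle-like level of Adamts1 in PLV replicate 1 was carried by its Pln-led cells, whose early-response genes summed to 24850 CPM against 13020 CPM in its Ano1-set cells. The same sums were 11650 and 10500 CPM in PLV replicate 2 and 24760 and 14780 CPM in the mixed library, and their part in the Adamts1 levels was not tested. Adamts4 was at 101.3 CPM (95% interval 80.95 to 125.3) in the P2rx1-led cluster, at 29.06 CPM in Ano1-set and at 21.57 CPM in Pln-led cells of the mixed library. As this cluster was found in 1 library, it was not tested.

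The blood endothelial-like cells split into capillary-like and venular-like clusters in PLV replicate 1 and in the mixed library, and stayed undivided in PLV replicate 2. Timp4 was at 742.7 and 307.2 CPM in capillary-like cells and at 29.09 and 32.26 CPM in venular-like cells. Timp2 had the reverse order, with 62.41 and 91.06 CPM in capillary-like and 561 and 508.6 CPM in venular-like cells. Timp3 was at 2578 and 1163 CPM in capillary-like and at 1066 and 491.5 CPM in venular-like cells, so it was higher in the capillary-like cells of both libraries. Of the 8 genes tested 6 were called, beside 13.5% of 8133 genes. Venular-like minus capillary-like log2 differences were 2.97 ± 0.20 for Timp2 (adjusted p = 7.906e-45), -3.81 ± 0.25 for Timp4 (1.234e-48), -1.08 ± 0.13 for Timp3 (3.091e-14) and 1.09 ± 0.32 for Mmp14 (0.006578). Mmp2 (2.10 ± 0.73, adjusted p = 0.03254) and Adamts4 (1.55 ± 0.48, adjusted p = 0.01119) were also called higher in venular-like cells. The Mmp2 call ended at 1000 UMIs, at 10% mitochondrial UMIs, with doublets kept, at a resolution of 2 and with thinned sums (adjusted p from 0.0515 to 0.09981), and the 15.18 CPM of the mixed venular-like cells, from 8 UMIs, lay under the 75.95 CPM of free RNA. With thinned sums the Adamts4 (0.1218) and Mmp14 (0.05181) calls ended too, as did that of Mmp14 under DESeq2 (log2 1.09, adjusted p = 0.997). Adamts1 (0.18 ± 0.18) and Adamts5 (-0.95 ± 0.42) were not called. These p-values come from 2 libraries and 1 residual degree of freedom. With the library left out of the model 2 genes passed, and the calls of Timp3 (adjusted p = 0.2434), Mmp14 (0.1964), Mmp2 (0.195) and Adamts4 (0.4976) ended. The arterial-like cluster of PLV replicate 1 lay at 2858 CPM of Timp3 and 156.5 CPM of Timp4.

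Fibroblast-like cells formed a Pi16 set and a Cxcl14 set in PLV replicate 1 and in the mixed library, a Col4a4 set in the mixed library, and were undivided in PLV replicate 2. For Mmp3 the Pi16 set of PLV replicate 1 stood apart. It had 13.07 CPM of Mmp3 from 9 UMIs, against 739.2 CPM in its Cxcl14 set and 200.1 CPM in its other clusters. In the mixed library the Pi16 set had 333.9 CPM, the Cxcl14 set 709.4 CPM and the Col4a4 set 460.1 CPM. The Cxcl14 sets of both libraries were thus alike in level and the Pi16 sets were not. Timp2 lay between 2138 and 3794 CPM in every one of these clusters. None of the 8 genes tested was called between the Pi16 and Cxcl14 sets, beside 0.316% of 8536 genes, and 728 genes had an unadjusted p under 0.05. DESeq2 also called 0 of the 8 genes. For Mmp3 the log2 difference, Pi16 minus Cxcl14, was -3.09 ± 1.08 (adjusted p = 0.4438), and for Timp3 1.17 ± 0.37 (adjusted p = 0.3697). At a Leiden resolution of 2 the sets were drawn differently and 3 genes were called, Mmp3 among them (-3.15, adjusted p = 0.0221).

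**Figure D4:**
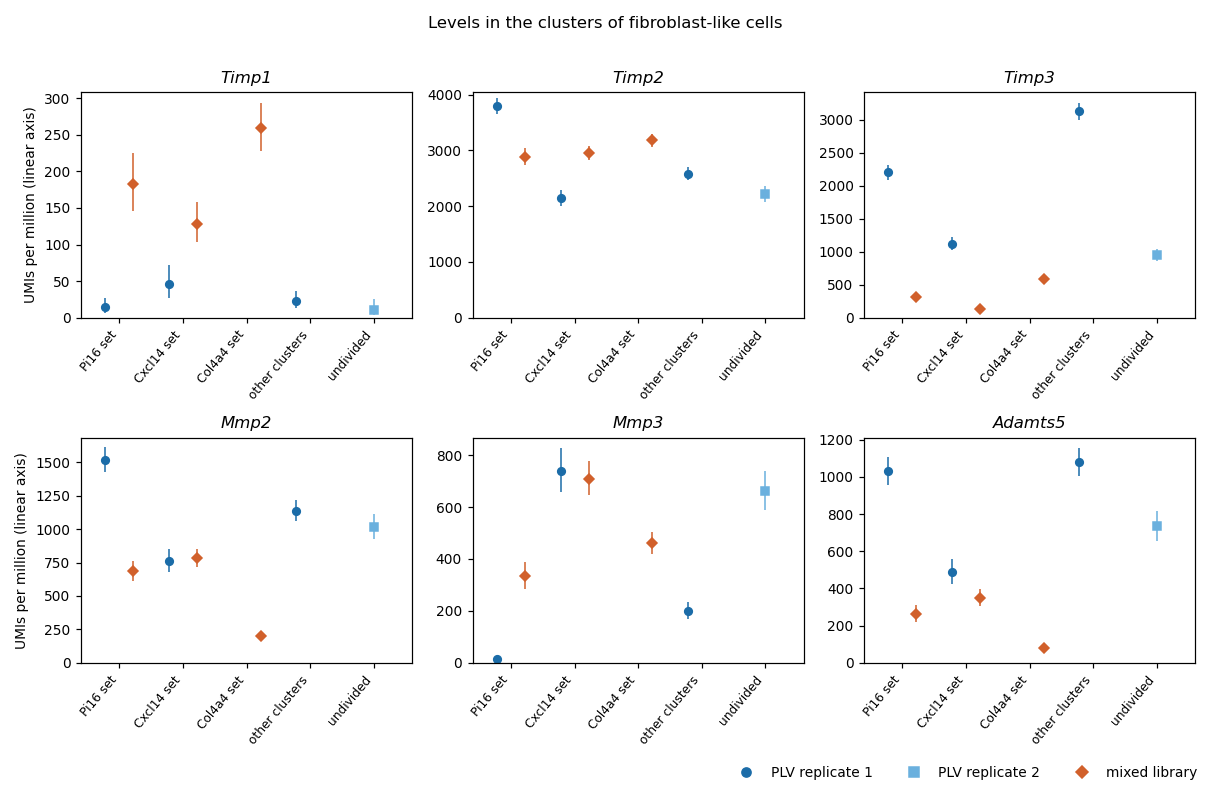
Levels of 6 genes in CPM (linear axes that differ between panels) in clusters of fibroblast-like cells; points are libraries and bars 95% Poisson intervals. Timp1 was higher and Timp3 lower in the mixed library in both sets found in 2 libraries, and Mmp3 was at 13.07 CPM in the Pi16 set of PLV replicate 1.

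The Col4a4 set, 137 of the 278 fibroblast-like cells of the mixed library, was named after a basement membrane collagen chain, and it occurred in 1 library and so was not tested. It had 259.4 CPM of Timp1, 202.9 CPM of Mmp2, 81.57 CPM of Adamts5 and 39.74 CPM of Adamts1. The Cxcl14 set of the same library had 128.3, 784.7, 351 and 209.4 CPM of these genes, and the Pi16 set 182.5, 686.4, 263.4 and 114.1 CPM. Within this library the Col4a4 set was therefore highest in Timp1 and lowest in Mmp2, Adamts5 and Adamts1, with 95% intervals that did not overlap.

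The mixed library was next set against the PLV libraries within each class, a comparison of 1 library with 2 that has 1 residual degree of freedom and assumes that the mixed arm varies like the PLV arm. In fibroblast-like cells 3 of the 9 genes tested were called, beside 11.7% of 10537 genes. Timp1 was higher in the mixed library (log2 3.84 ± 0.35, adjusted p = 3.723e-07), and Timp3 (-1.55 ± 0.44, adjusted p = 0.02515) and Adamts5 (-1.45 ± 0.36, adjusted p = 0.01137) were lower. Timp3 was at 2331 and 952.9 CPM in the PLV libraries, so these differed from each other by more than 2-fold, and DESeq2 did not call it (adjusted p = 0.3498). Against PLV replicate 2 alone the Timp3 difference was -0.89 and that of Timp1 4.60, and against PLV replicate 1 alone that of Timp3 was -2.05. After thinning, Timp1 was found in 2.65%, 0% and 23.1% of fibroblast-like cells, and in 0%, 0% and 0.311% of muscle-like cells. Without thinning these shares were 9.79%, 5.75% and 57.55%, at median depths of 4057, 4225 and 6904 UMIs, and 0.775%, 0% and 1.2% of muscle-like cells, at 4782, 6721 and 7418 UMIs. Early-response genes summed to 9403 CPM in the mixed library, below both PLV values, though Atf3, one of them, was at 491.4 CPM against 273.1 and 190.6 CPM. The 7 fibroblast markers summed to 77970 CPM against 22700 and 14280 CPM. The part of either in these differences was not tested.

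The set of fibroblast-like clusters differed between libraries, so the same genes were read within the sets found in both. In the Cxcl14 sets of PLV replicate 1 and the mixed library, Timp1 was at 45.75 and 128.3 CPM, Timp3 at 1122 and 131.3 CPM, and Adamts5 at 488.8 and 351 CPM. In the Pi16 sets, Timp1 was at 14.52 and 182.5 CPM, Timp3 at 2200 and 319.4 CPM, and Adamts5 at 1029 and 263.4 CPM. In CPM, without the scaling between sums used in the fit, all 3 genes moved the same way in both sets as in the whole class. The smallest of these changes was that of Adamts5 in the Cxcl14 sets, and it was not tested on the scale of the fit. Mmp2 was at 760.8 and 784.7 CPM in the Cxcl14 sets and at 1519 and 686.4 CPM in the Pi16 sets. These pairs are 1 library against 1 and have no test.

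In muscle-like cells 2 of the 8 genes tested were called, beside 14.0% of 10731 genes. Timp4 was lower in the mixed library (log2 -1.82 ± 0.28, adjusted p = 1.36e-05) and Adamts4 was higher (2.57 ± 0.31, adjusted p = 1.259e-07). Timp2 (0.71 ± 0.25, adjusted p = 0.0522) and Timp3 (-0.73 ± 0.28, adjusted p = 0.07745) missed the threshold. Both passed at 1000 UMIs, with doublets kept and at a resolution of 0.5, and Timp2 also with relative log expression factors, thinned sums and a resolution of 2. Pln-led cells made up 63.8% and 48.2% of the muscle-like cells of the PLV libraries and 17.8% (95% interval 13.8 to 22.3) of those of the mixed library. Within the Pln-led cells the Timp4 level of the mixed library, 685.4 CPM, lay between the 2 PLV values, 851.7 and 618.3 CPM. Of the 132 Adamts4 UMIs of muscle-like cells in the mixed library, 85 lay in the P2rx1-led cluster, which was found in that library alone. Within the Ano1-set cells Adamts4 was at 29.06 CPM from 38 UMIs in the mixed library, against 5.561 and 12.41 CPM from 4 and 4 UMIs. Within the Pln-led cells it was at 21.57 CPM (95% interval 9.862 to 40.94) from 9 UMIs, against 14.33 CPM (8.63 to 22.38) and 4.339 CPM (0.5255 to 15.67), so the intervals overlapped. The free RNA of the mixed library held Adamts4 at 14.99 CPM, and its part was not tested.

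**Figure D5:**
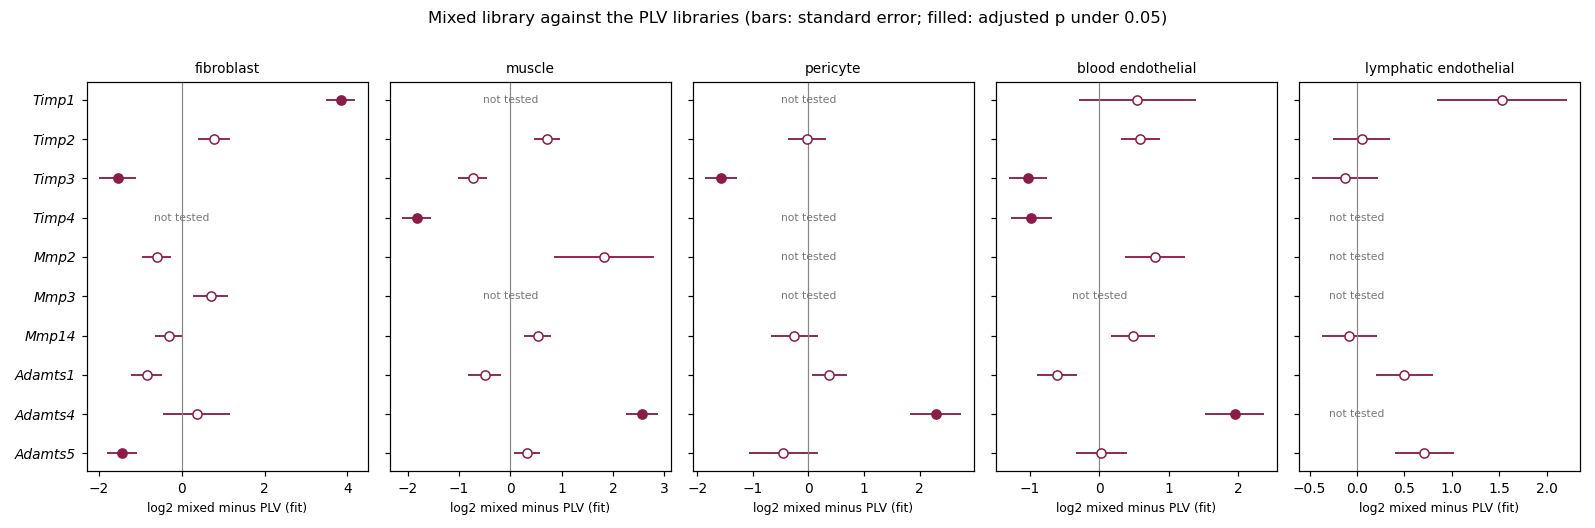
Log2 difference of each gene between the mixed library and the 2 PLV libraries within 5 cell classes, on axes that differ between panels; horizontal bars are standard errors, filled points passed an adjusted p of 0.05, and genes too low to test are marked. Timp3 was called lower in fibroblast-like, pericyte-like and blood endothelial-like cells, Adamts4 was called higher in muscle-like, pericyte-like and blood endothelial-like cells, and no gene was called in lymphatic endothelial-like cells.

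In pericyte-like cells 2 of the 6 genes tested were called, beside 3.05% of 4394 genes: Timp3, lower in the mixed library (log2 -1.57 ± 0.28, adjusted p = 1.085e-05), and Adamts4, higher (2.29 ± 0.46, adjusted p = 0.0001656). The Timp3 call ended with at most 10% mitochondrial UMIs (adjusted p = 0.9962), with doublets kept (0.894), and at Leiden resolutions of 0.5 (0.61) and 2 (0.9964), with log2 values from -1.71 to -1.16. The Adamts4 call ended under DESeq2 (adjusted p = 0.9998), with thinned sums (0.0742) and at a Leiden resolution of 0.5 (0.5177), and its log2 value was 1.39 against PLV replicate 2 alone and 3.39 against PLV replicate 1 alone. In blood endothelial-like cells 3 of 9 genes were called, beside 4.48% of 10244 genes. Timp3 (-1.03 ± 0.28, adjusted p = 0.01072) and Timp4 (-0.98 ± 0.30, adjusted p = 0.0284) were lower in the mixed library and Adamts4 was higher (1.95 ± 0.43, adjusted p = 0.0005465), and none of these was called with cells of at least 1000 UMIs, with log2 values of -1.02, -0.98 and 1.94. The Timp4 call also ended under DESeq2 (adjusted p = 0.1406), those of Timp3 (0.08007) and Timp4 (0.09697) at 10% mitochondrial UMIs, and that of Adamts4 with thinned sums (log2 1.04, adjusted p = 0.463). The clusters of this class differed between libraries: capillary-like cells were 38.7% of it in PLV replicate 1 and 55.6% in the mixed library. An arterial-like cluster (27.3%) was found in PLV replicate 1, and in the mixed library a cluster of neither kind (18.3%), with Timp3 at 406.3 CPM and no Timp4 UMI. The capillary-like and venular-like clusters moved like the class in Timp3, and Timp4 was lower in the capillary-like but not in the venular-like cluster. In lymphatic endothelial-like cells edgeR called 0 of 6 genes, beside 0.733% of 8998 genes, with 1179 genes at an unadjusted p under 0.05, and DESeq2 also called 0. Timp3 there had a log2 difference of -0.13 ± 0.35 and Timp2 of 0.05 ± 0.30. In pericyte-like cells the 8 pericyte markers summed to 5886 CPM in the mixed library, against 11660 and 9252 CPM in the PLV libraries. Early-response genes summed to 11400 CPM there, against 7929 and 7552 CPM, with Atf3 at 626 CPM against 185.2 and 48.83 CPM. The part of either in the pericyte-like differences was not tested.

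Whether the fibroblast-like minus muscle-like difference itself changed with the kind of library was tested with an interaction term. The mixed kind is 1 library, so the 5 residual degrees of freedom come from the class sums of the 2 PLV libraries, and the mixed library is assumed to vary like them. Here 2 of the 10 genes were called, beside 3.32% of 11996 genes. The fibroblast-like minus muscle-like difference of Adamts5 was lower in the mixed library (log2 -1.77 ± 0.39, adjusted p = 0.004212), where the fibroblast-like level lay under the muscle-like level of 356.9 CPM: the gene was at 928.1 and 733.5 CPM in the PLV and at 209.3 CPM in the mixed fibroblast-like cells, and within 314.4 to 357.5 CPM in muscle-like cells. DESeq2 (adjusted p = 0.1999) and thinned sums (0.1789) did not call it. Mmp2 was also called (-2.49 ± 0.71, adjusted p = 0.03907), but its muscle-like level rests on 4, 1 and 14 UMIs, and the sign reversed under 4 other settings. At 1000 UMIs Adamts4 (-2.95) and Timp4 (9.07) passed as well, and Timp4 at a resolution of 2 (8.85). In the main fit Timp4 had no UMI in the fibroblast-like cells of any library, and its interaction was 1.87 with an SE of 8254.17. With a class at 0 the size of this interaction cannot be estimated, so no Timp4 difference is read from these values. For Timp1 the interaction was 3.05 ± 1.39 (adjusted p = 0.313).

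The wider protease genes were counted from lists. Of 44 other metalloproteinases 21 were tested between fibroblast-like and muscle-like cells, and 12 were higher in fibroblast-like and 3 in muscle-like cells, with a median log2 difference of 0.97 (0.84 with genes absent from a class set at their limit) against 0.04 over all genes tested. Mmp17, a membrane-anchored MMP, was among those higher in muscle-like cells, at 62.58 against 1.391 CPM (log2 -5.39 ± 0.45, adjusted p = 1.002e-08). Of 20 inhibitors and regulators 16 were tested, and 10 were higher in fibroblast-like and 2 in muscle-like cells (median 2.09). All 7 genes of the plasmin system were tested, and 5 were higher in fibroblast-like cells and 1 in muscle-like cells (median 2.57). A list of proteoglycans, fibronectin and hyaluronan synthases had 8 of 10 tested higher in fibroblast-like cells and 1 in muscle-like cells (median 5.38). Dcn, Lum, Has2 and Vcan were among them, with Vcan, the versican cut by ADAMTS enzymes, at 170.3 against 2.634 CPM (5.77 ± 0.62, adjusted p = 5.271e-07). This Vcan difference itself was lower in the mixed library (log2 -5.06 ± 0.91, mixed minus PLV). The size of that change leans on the low muscle-like level of Vcan, and its levels per library are not given. Over all genes, 2283 were higher in fibroblast-like and 1821 in muscle-like cells.

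Between Ano1-set and Pln-led muscle, 9 of the 21 other metalloproteinases tested were higher in Ano1-set and 5 in Pln-led cells, with a median log2 difference of 0.33, beside 1355 and 1347 of 9413 genes and a median of 0.03. Mmp23, a metalloproteinase that sheds a membrane anchor, was at 132.4 CPM in Ano1-set and 3 CPM in Pln-led cells (log2 5.49 ± 0.36, adjusted p = 1.483e-19). Adamts9 (1.289 against 27.4 CPM) and Adamts14 (0.7183 against 21.01 CPM) were higher in Pln-led cells. Of the 12 inhibitors and regulators tested 6 were higher in Ano1-set and 2 in Pln-led cells (median 1.01), with Spock2 at 326.7 against 0.5029 CPM. The plasmin system had 2 of 5 higher in Ano1-set and 3 in Pln-led cells (median -0.49), and the list with the proteoglycans 2 and 4 of 8 (median -0.69). Of the 21 other metalloproteinases, 4 were higher in pericyte-like and 2 in muscle-like cells (median -0.11), beside 617 and 773 of 10489 genes (median -0.03). Pericyte-like cells exceeded muscle-like cells in Adamts12, at 366.2 against 34.27 CPM (3.35 ± 0.33, adjusted p = 9.607e-07). Between lymphatic and blood endothelial-like cells, 4 of the 21 other metalloproteinases were higher in lymphatic and 5 in blood cells (median 0.02), beside 988 and 1276 of 10489 genes (median -0.04). Mmp15 was at 0.5834 CPM in the lymphatic and 44.78 CPM in the blood cells (-5.46 ± 0.67, adjusted p = 2.908e-06).

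In fibroblast-like cells of the mixed library against the PLV libraries, 2 of the 21 other metalloproteinases tested were higher and 2 lower, with a median log2 difference of -0.05, beside 808 and 421 of 10537 genes and a median of -0.01. Mmp23 was higher, at 422.9 against 106 CPM (log2 2.52 ± 0.32, adjusted p = 2.406e-05). Of the 7 genes of the plasmin system 1 was higher, 2 were lower and 4 were not called (median 0.72). The 2 lower ones were the activators Plau (12.28 against 179.4 CPM, -3.33 ± 0.40, adjusted p = 1.612e-05) and Plat (30.71 against 192 CPM, -2.12 ± 0.38, adjusted p = 0.000749). Of the 16 inhibitors and regulators tested 3 were higher and 4 lower (median -0.28). Reck, a membrane-anchored MMP inhibitor, was lower, at 20.79 against 101.1 CPM (-1.79 ± 0.41, adjusted p = 0.005474). Cst3, the cysteine protease inhibitor cystatin C, was higher, at 7694 against 1118 CPM (3.31 ± 0.42, adjusted p = 2.406e-05).

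Which other genes were most like each of the 10 was measured as the correlation of log2 levels over the 18 sums of 6 classes in 3 libraries, among 9040 genes, and is a description. The sums share libraries and classes, so the points are not independent. Mmp3 was most like Smoc2 (r = 0.992), Mmp27 (0.988) and Dpep1 (0.988). Mmp2 was most like Htra3 (0.953), F3 (0.952) and Fbln1 (0.950), and Mmp14 like B3gnt9 (0.957) and Wnt5a (0.932). Among the 3 genes most like Timp4 were Tcf15 (0.957) and Kcna5 (0.952). Among the 10 genes, Mmp2 and Mmp3 had r = 0.901, Timp2 and Mmp3 0.874, and Mmp3 and Mmp14 0.827, while Timp2 and Timp4 ran oppositely (-0.687). Timp3 was most like Itpripl2 (0.910), Adamts1 like Ehd1 (0.922), and Adamts5 like Clip4 (0.922), and Timp1 was under the level needed for this measure.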

How the data were processed

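Single-cell RNA was measured in 3 libraries. The deposited values are raw UMI counts for each gene in each barcode, made with Cell Ranger (6.1.2 for PLV, 4 for the mixed library, per the file headers) on GRCm38, per the submitters' processing notes. Cells had at least 500 UMIs and 300 genes, at most 15% mitochondrial and 20% haemoglobin UMIs, and were no scrublet doublet (12, 3 and 4 removed). Each library was clustered alone (scanpy 1.11.5, 2000 variable genes, 50 components, 15 neighbours, Leiden resolution 1), without the 10 genes and the companion lists. Classes needed 3 markers raised 2-fold. The names of clusters within a class were set after these were seen, and 159, 108 and 41 cells stayed unnamed.

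UMI sums per library and class (at least 20 cells) were fitted with edgeR 4.0.16 in R 4.3.3 (quasi-likelihood, TMM, filterByExpr) with class and library as terms, and adjusted p-values are Benjamini-Hochberg over all genes tested. The library term pairs sums from the same mice. Since libraries are pools, p-values do not measure the spread between mice. In the class fits they rest on the spread of class sums between libraries, the unlike mixed library included. In the fits with 1 or 2 residual degrees of freedom the spread is drawn mostly from other genes. Alternatives were DESeq2 1.42.0, other scaling, filters, resolutions, thinning, no library term and each library left out. The simulated-data check of the fit ran first. Sites and promoters came from GENCODE M21 and RefSeq. Other genes named are, per comparison, up to 8 companions with at least 50 UMIs and the largest differences among those called, and only some are printed. The members and lists were chosen with earlier results of these data known. The hashtag counts were not used, and a contrast of the Col4a4 set could not be fitted. Some items are not reported here.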

Additional observations from a re-analysis of the deposited data

Results flagged for a closer look

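Between kinds of library the fibroblast-like minus muscle-like difference itself differed for 2 genes in the interaction test, where the mixed arm has no replicate and its spread is taken from the 2 PLV libraries. For Adamts5 the change was -1.77 on the log2 scale, mixed minus PLV, and for Mmp2 it was -2.49, where the muscle-like level rests on 4, 1 and 14 UMIs. All 14 Mmp2 UMIs of the mixed library's muscle-like cells lay in its Pln-led cluster.

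Signal of all 10 genes was also found in the near-empty droplets of the mixed library, those under 50 UMIs, which no comparison used. Over 185412 such droplets with 1000645 UMIs, the levels were 448.7 CPM for Timp2, 237.8 CPM for Timp3 and 117.9 CPM for Adamts1. Mmp2 was at 75.95 CPM, Timp4 at 71.95 CPM, Timp1 at 70.95 CPM and Mmp14 at 50.97 CPM. Mmp3 was at 42.97 CPM, Adamts5 at 40.97 CPM and Adamts4 at 14.99 CPM. Of the 6 classes of this library, the level lay above that of the droplets in 1 for Timp1, Mmp2 and Mmp3, in 2 for Timp4, and in 6 for Timp3. Its part in the lower class levels was not tested, and the PLV libraries hold no such droplets.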

How the results depend on the processing

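The number of the 10 genes called kept within 1.5 times of its value under every alternative run for fibroblast-like against muscle-like, pericyte-like or endothelial-like cells, Ano1-set against Pln-led muscle, and the mixed library against PLV in fibroblast-like and lymphatic endothelial-like cells. With cells of at least 1000 UMIs, 2 genes were called between pericyte-like and muscle-like cells (5 before), and mixed against PLV 0 in blood endothelial-like (3 before), 4 in muscle-like (2 before) and 4 in pericyte-like cells (2 before). At a Leiden resolution of 0.5 these were 2 for pericyte-like against muscle-like, 4 for muscle-like, 0 for pericyte-like, and 1 for the interaction (2 before). With at most 10% mitochondrial UMIs, 1 was called in blood endothelial-like and 1 in pericyte-like cells, and 1 in the interaction. DESeq2 called 1 in blood endothelial-like and 1 in pericyte-like cells, 0 in the interaction and 3 between venular-like and capillary-like cells (6 before). With doublets kept, 4 were called in muscle-like cells, 1 in pericyte-like cells and 1 in the interaction. Thinned sums gave 3 for lymphatic against blood endothelium (5 before), 1 for pericyte-like cells, 0 for the interaction and 3 for venular-like against capillary-like cells. A resolution of 2 gave 1 in pericyte-like cells and 3 for the Pi16 against the Cxcl14 set (0 before), where no filter on low counts gave 1. The cause was not tested, but the pericyte-like class itself changed in size with the resolution, with the UMI minimum and with doublets kept.

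Signs reversed for Mmp2 in the interaction (4.29 at 1000 UMIs, 3.16 and 3.23 at resolutions of 0.5 and 2, 2.26 thinned) and for Adamts5, mixed against PLV in pericyte-like cells (1.44 at 1000 UMIs), and the Timp4 difference between pericyte-like and muscle-like cells came to 0.00 at 1000 UMIs. The reversed Adamts5 value passed the threshold, while its main value of -0.45 had not. The cause was not tested. Of 1387 single-gene alternatives, 1342 kept their sign, of which 69 lost and 32 gained a call. The sign was opposite in 41, of which 37 were of genes not called before, such as Adamts1, mixed against PLV in muscle-like cells (-0.50, but 0.21 without PLV replicate 1). In the other 4 a value was 0.00.

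Without the replicate block, which here pairs sums of one library, 7 genes were called for fibroblast-like against muscle-like, 9 against pericyte-like and 8 against endothelial-like cells. The counts were 4 for pericyte-like against muscle-like cells, 4 for lymphatic against blood endothelium, 3 for Ano1-set against Pln-led muscle, 0 for the fibroblast sets and 2 for venular-like against capillary-like cells. Leaving out each library in turn gave 7 to 8 called for fibroblast-like against muscle-like, 8 to 10 against pericyte-like and 7 to 9 against endothelial-like cells, 4 to 5 for pericyte-like against muscle-like cells, 5 to 6 for lymphatic against blood endothelium and 3 to 5 for the muscle clusters. For the fibroblast sets (0) and venular-like against capillary-like cells (6), leaving out PLV replicate 2, which they do not use, was the sole such fit. These fits were not run at a resolution of 0.5, nor the fibroblast sets at 1000 UMIs, since a set was missing. Without a PLV library the mixed comparisons had no residual degrees of freedom and no test. Low UMI counts limit Timp1 and Mmp3 outside fibroblast-like cells and Adamts4 in pericyte-like cells.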

Other observations

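In PLV replicate 1, 130 cells led by Ndufa4l2, Rgs5 and Rgs4 and holding markers of both muscle and pericytes formed a cluster that was given no name and left out of all comparisons. It had 2361 CPM of Timp3, 292.9 CPM of Timp4, 292.9 CPM of Timp2, 628.4 CPM of Adamts1 and 112.9 CPM of Adamts5. For Timp3 and Timp4 these values lie between those of the pericyte-like and the muscle-like cells of that library. A cluster of 33 blood endothelial-like cells in the mixed library, called neither capillary-like nor venular-like, had 924.5 CPM of Timp2, 95.35 CPM of Mmp2 and no Timp4 UMI.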
